A study of Rattus norvegicus with 16 samples.

Results

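The 10 transcripts described here are messenger RNAs of mitochondrial DNA that encode subunits of the respiratory chain and the ATP synthase, measured in the kidney of normal, diabetic and sinomenine-treated rats. They are Mt-nd1, Mt-nd2, Mt-nd4, Mt-nd5 and Mt-nd6 of complex I, Mt-cyb of complex III, Mt-co1, Mt-co2 and Mt-co3 of complex IV, and Mt-atp6 of complex V. The members were taken by gene symbol from a table of 35849 rows, which held 13 messenger RNAs of mitochondrial DNA in all. Mt-nd3, Mt-nd4l and Mt-atp8 are the 3 that are not members. The 2 mitochondrial ribosomal RNAs had no row under their symbols and could not be analysed.

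The kidneys came from male Sprague Dawley rats that entered the experiment at 6 to 8 weeks of age, with libraries of 4 rats in each of 4 groups. The paper describes 6 rats per group, and how the 4 with libraries were chosen is not stated. In the normal group, rats were injected with citrate buffer and ate a normal diet. The DN (diabetic nephropathy) group received 45 mg/kg of streptozotocin, a toxin of pancreatic beta cells, and a diet rich in glucose and fat, and only rats whose blood glucose had passed 16.7 mmol/L were kept. By the paper's abstract the untreated DN rats were given vehicle by gavage, while no gavage is described for the normal rats. Rats of SIN (20 mg/kg), and at the higher dose of SIN (40 mg/kg), had the same injection, selection and diet. They were given sinomenine, an alkaloid of the plant Sinomenium acutum, by gavage every day for 8 weeks. All diabetic groups therefore shared both the toxin and the diet, and the part of each could not be told apart.

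Mammalian mitochondrial DNA is transcribed as long precursors from both strands, which are cut at the transfer RNAs between the genes, so that the amounts of the single messenger RNAs are set largely by processing, polyadenylation and decay after transcription. Its proteins form the catalytic core of complexes I, III, IV and V, in which they are assembled with many more subunits encoded in the nucleus. The kidney, and its proximal tubule and thick ascending limb above all, is rich in mitochondria because the reabsorption of salt and solutes depends on ATP.

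Each library held between 19616300 and 25217000 estimated counts. Over the genes that passed a filter on low counts, the rank correlation between any 2 rats lay between 0.95 and 0.99. All 7 proximal tubule markers and all 3 thick ascending limb markers had counts in every rat. The summed thick ascending limb markers were between 3486 and 4896 CPM (counts scaled to the library total) in normal rats, between 1886 and 3758 in DN rats, between 3060 and 3294 at 20 mg/kg and between 2293 and 3492 at 40 mg/kg. Of that list Umod was lower in DN than in normal rats by edgeR's test (log2 fold change -0.77, adjusted p 0.0154), while Slc12a1 had -0.17 (adjusted p 0.745) and Kcnj1 had 0.15 (adjusted p 0.763). The summed intercalated cell markers were 285 to 389 CPM in normal rats and 219.8 to 281 in DN rats, without overlap. Of the 3 genes Slc26a4 was called (log2 fold change -0.89, adjusted p 0.0249), while Slc4a1 had -0.17 (adjusted p 0.545) and Atp6v1g3 had -0.19 (adjusted p 0.539). The summed principal cell markers were 269.6 to 863 CPM in normal and 537 to 1696 in DN rats. Aqp2 had a log2 fold change of 1.23 (adjusted p 0.0760), Aqp3 had 0.88 (adjusted p 0.0928) and Scnn1g had 0.02 (adjusted p 0.917). The proximal tubule sum overlapped among all groups, with 8472 to 11505 CPM in normal rats and 6800 to 11196 in DN rats. By edgeR's test Col1a1 of the fibroblast and smooth muscle list was higher in DN rats (log2 fold change 1.077, adjusted p 0.0262). Dcn of that list had -0.48 (adjusted p 0.134). Ptprc of the leukocytes (-0.81, adjusted p 0.0328) and Alas2 of the red cells (-1.4995, adjusted p 0.0392) were lower. No distal convoluted tubule, podocyte, endothelium or fat marker was called. Against DN the fibroblast list had median log2 fold changes of -1.06 at 20 mg/kg and -0.93 at 40 mg/kg, without a call. The part of these shifts in the values below was not tested, and in whole tissue fewer cells of a type and less RNA per cell cannot be told apart. The serial numbers of the libraries ran consecutively within a group, so any batch in library handling cannot be told apart from the condition.

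The 10 members together took between 9.70% and 14.19% of all counts in a library. Their summed share was 11.68%, 11.44%, 12.04% and 10.87% in normal rats 1 to 4 and 13.16%, 11.03%, 12.49% and 14.19% in DN rats 1 to 4. At 20 mg/kg the shares were 12.95%, 11.32%, 10.87% and 12.36%, and at 40 mg/kg they were 11.01%, 9.70%, 11.35% and 11.44%, each in the order of the rats, as below. The DN group held the rats with the highest shares, but its second rat lay below 3 of the 4 normal rats, and no pair of groups was free of overlap. As group means with SD, the share was 11.5% ± 0.494 in normal, 12.7% ± 1.32 in DN, 11.9% ± 0.948 at 20 mg/kg and 10.9% ± 0.806 at 40 mg/kg (n = 4 each). Relative to the counts outside mitochondrial DNA alone, the means were 13.04%, 14.63%, 13.53% and 12.24% in the same order. The DN mean exceeded the normal mean by 1.21 percentage points. It was 0.719 points without DN rat 4. With Mt-co1, the member with the most counts, left out of the sum, the difference was -0.0333 points, a net value over members with means on both sides, such as Mt-atp6 at 1.21% in DN and 1.03% in normal rats and Mt-nd2 at 0.488% and 0.644%.

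**Figure D1:**
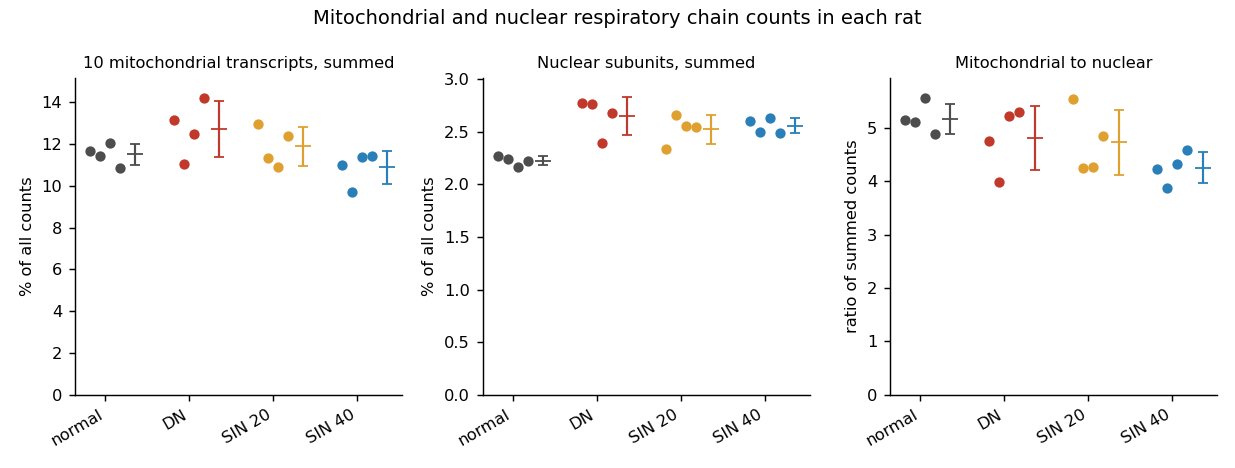
Summed counts of the 10 mitochondrial transcripts (left) and of the nuclear encoded subunits (middle) as percent of all counts, and the ratio of the sums (right), with 1 point per rat and the group mean and SD beside the points. SIN 20 and SIN 40 are the groups given 20 and 40 mg/kg. The mitochondrial share overlaps among all groups, whereas the nuclear share is 2.39% to 2.77% in DN rats, above the 2.17% to 2.27% of normal rats.

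Levels differed far more between the members than between the groups. In CPM per kilobase of transcript, averaged over the 16 rats, the level was 34607 for Mt-co1, 20177 for Mt-co3, 15927 for Mt-atp6, 10198 for Mt-cyb and 9557 for Mt-co2. It was 7630 for Mt-nd1, 5305 for Mt-nd2, 2716 for Mt-nd4, 1237 for Mt-nd5 and 590 for Mt-nd6, so that Mt-co1 stood 58.7 times above Mt-nd6. The order of these means ran from Mt-co1, which carries the heme and copper centre where oxygen is reduced, down to the complex I subunits. It did not follow the complexes throughout, as Mt-co2 of complex IV lay below Mt-atp6 of complex V. Of the 9 neighbouring pairs in this order, 7 held in 16 of 16 rats. Mt-co2 was above Mt-nd1 in 15 of 16 rats, and Mt-cyb was above Mt-co2 in 10 of 16, so these last 2 could not be ordered beyond their spread. Because the libraries were made by oligo(dT) selection, a level here also depends on the poly(A) tail. Mt-nd6 is the member encoded on the opposite strand to the rest, and since the counting is not stated to use strand, its reads and those of the transcript across from it cannot be told apart.

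**Figure D2:**
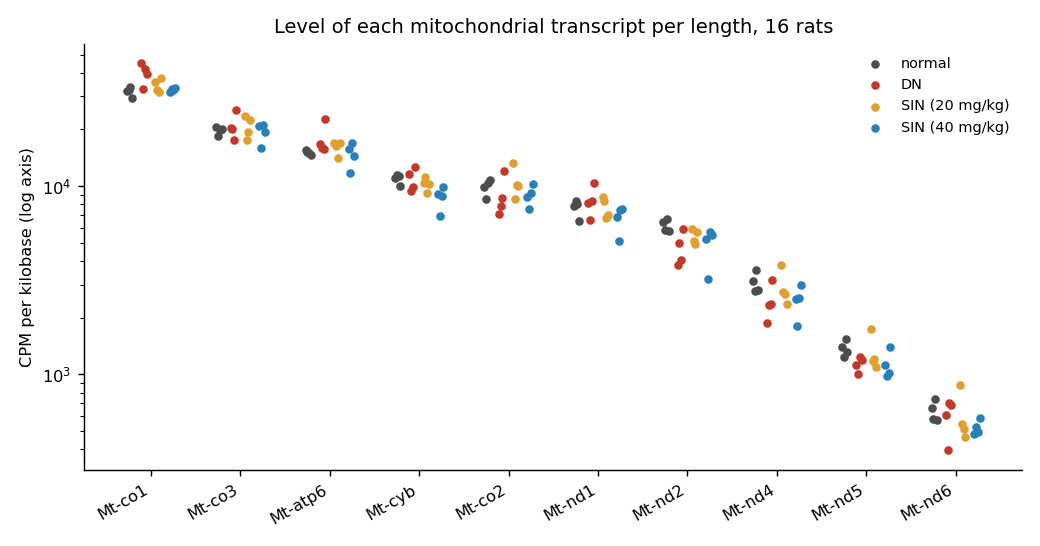
CPM per kilobase of transcript of each member on a log axis, with 1 point per rat, coloured by group and ordered by the mean over the 16 rats. The means descend from 34607 for Mt-co1 to 590 for Mt-nd6, and the spread between rats within a gene is small beside the distance between genes.

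For some members the deposited counts may be split with other rows. The estimated counts of Mt-co1, Mt-co3 and Mt-nd4 were not whole numbers in any rat, nor were those of Mt-nd5 in 15 of the 16, as can happen where reads are divided between similar sequences. A row annotated as the same protein as Mt-nd4 held 3.24% to 9.18% as many counts as Mt-nd4. It held 3.24% to 4.31% in normal rats and 9.18%, 4.27%, 6.71% and 5.41% in DN rats 1 to 4. At 20 mg/kg it held 3.79% to 4.31%, and at 40 mg/kg 4.45% to 8.13%. Its counts are not part of the main values of Mt-nd4. The 2 such rows for Mt-co1 held at most 0.111% as many as Mt-co1 each. Whether these rows are near-identical in sequence was not tested, and no such row was found for Mt-co3 or Mt-nd5. Adding these rows to their members, a setting chosen after seeing the data, moved no member past the threshold in any comparison.

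The comparison of DN with normal rats asks whether the diabetic state goes with another level of these transcripts. The quasi-likelihood test of edgeR, with p adjusted over all genes by the method of Benjamini and Hochberg and a threshold of 0.05, called 0 of the 10 members and 3074 of 15775 genes (19.5%). At an unadjusted p under 0.05, 1 member and 5823 genes (36.9%) passed. The median log2 fold change of the members was 0.01, beside 0.0016 over all genes, with 5 members on the positive side and 5 on the negative side.

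Among the complex IV members, Mt-co1 made up 4.91%, 5.03%, 5.17% and 4.52% of all counts in the normal rats and 6.94%, 5.09%, 6.50% and 6.09% in the DN rats. The second DN rat lay within the normal range and the other DN rats lay above it. The log2 fold change was 0.38 ± 0.15 (SE), with an adjusted p of 0.103 in the edgeR fit. This was the member nearest to a call, and it passed with DESeq2 (log2 fold change 0.39, adjusted p 0.0106), with edgeR's exact test (adjusted p 0.0495) and with all 16 rats in 1 quasi-likelihood fit (adjusted p 0.0309). The share of all genes called under these settings was not computed. Over its 18 alternative settings the adjusted p ran from 0.0106 to 0.282. The other members of the complex had intervals on both sides of 0, with Mt-co2, which takes electrons from cytochrome c, at a log2 fold change of -0.09 (95% interval -0.53 to 0.35) and Mt-co3 at 0.14 (-0.22 to 0.49).

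Among the complex I members, Mt-nd2, which lies in the proton-pumping membrane arm, had 0.668%, 0.609%, 0.696% and 0.603% of all counts in the normal rats and 0.398%, 0.520%, 0.418% and 0.614% in the DN rats. The fourth DN rat lay inside the normal range and the other 3 lay below it. The log2 fold change was -0.34 (95% interval -0.73 to 0.05), with an adjusted p of 0.183. Without DN rat 4 it was -0.52 with an adjusted p of 0.0321, so that this 1 library decided the call by edgeR's test.

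The remaining complex I members had values on both sides of 0 and were not called. Mt-nd4 and Mt-nd5, which form the far pumping modules of the membrane arm, had log2 fold changes of -0.27 (95% interval -0.69 to 0.15) and -0.21 (-0.49 to 0.07). Mt-nd1, at the joint where quinone binds, had 0.18 (-0.22 to 0.58), and Mt-nd6 had -0.03 (-0.46 to 0.40). None of these intervals excluded 0.

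For complexes III and V, Mt-cyb, the cytochrome b that carries both quinone sites of complex III, had a log2 fold change of 0.05 (95% interval -0.29 to 0.38) between DN and normal rats. Mt-atp6, the subunit through which protons enter the rotor of the ATP synthase, had 1.06%, 1.03%, 1.03% and 1.00% of all counts in normal rats and 1.14%, 1.08%, 1.07% and 1.55% in DN rats. It was the only member whose share of all counts did not overlap between these groups, with every DN rat higher, beside 23.4% of all genes tested whose shares did not overlap and 8.56% that did so upwards. The fold change was 0.30 on the log2 scale (95% interval -0.08 to 0.68, edgeR adjusted p 0.232), and 0.11 without DN rat 4. Of the mitochondrial messenger RNAs that are not members, Mt-atp8, whose reading frame overlaps that of Mt-atp6, had 0.34 (adjusted p 0.0917), Mt-nd4l, which is carried on 1 transcript with Mt-nd4, had -0.26 (adjusted p 0.0979), and Mt-nd3 had 0.25 (adjusted p 0.338).

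**Figure D3:**
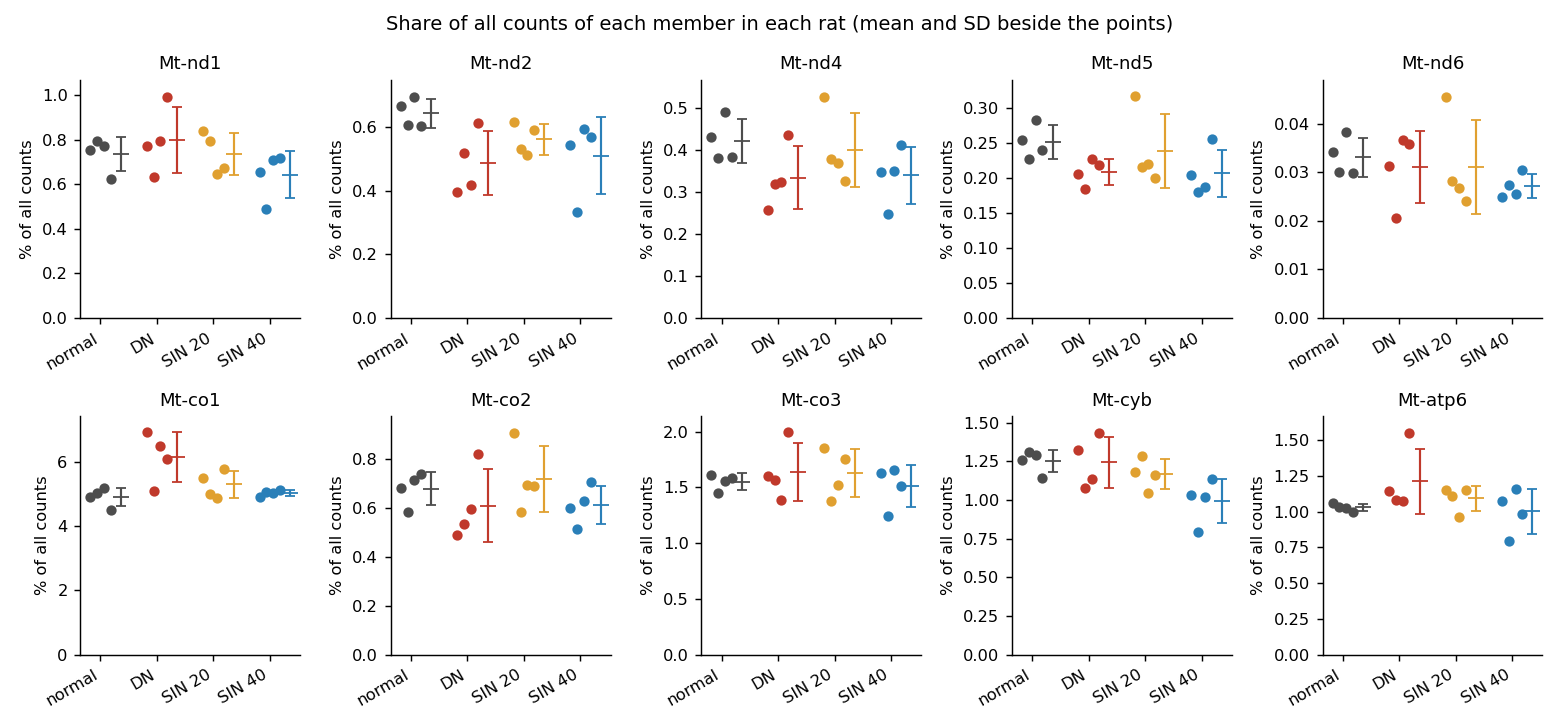
Percent of all counts of each member in each rat, with the group mean and SD beside the 4 points of each group (all axes start at 0). For Mt-co1 the DN rats reach 6.94% where the normal rats end at 5.17%, for Mt-nd2 the DN rats go down to 0.398% where the normal rats start at 0.603%, and for Mt-nd1, Mt-co2 and Mt-co3 the ranges of DN and normal rats overlap widely.

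The make-up of the mitochondrial pool differed between DN and normal rats, with more members free of overlap than as shares of all counts. Shares of a pool depend on each other, so a larger share of Mt-co1 by itself lowers the shares of the rest. Mt-co1 and Mt-nd2 also had the highest and the lowest log2 fold change of the single levels (0.38 and -0.34). As a share of the members' own counts, 4 of the 10 members did not overlap between the groups, and the complex I subunits Mt-nd2, Mt-nd4 and Mt-nd5 and Mt-cyb of complex III were lower in every DN rat than in every normal rat. Over all genes tested, the ratio to the members' summed counts did not overlap in 19.4%, and was lower in every DN rat in 17.4%. Nearly all of these genes lie outside the pool, so theirs is a ratio to it and not a share of it, here and below. Leaving out 1 rat at a time gave 4 to 6 members. Dropping a rat can only keep or add members without overlap, so this count could not have fallen. With Mt-co1 taken out of the pool, 3 of the 9 that remained did not overlap.

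Mt-nd2 took 5.72%, 5.32%, 5.78% and 5.55% of the members' counts in the normal rats and 3.02%, 4.71%, 3.35% and 4.33% in the DN rats. DN rats 1 and 3 lay lowest. Mt-nd5 took 1.98% to 2.35% in normal and 1.54% to 1.82% in DN rats. Mt-nd4 took 3.33% to 4.08% in normal and 1.96% to 3.08% in DN rats, and Mt-cyb took 10.54% to 11.44% and 9.09% to 10.12%. The 5 complex I members together took 18.1% ± 0.691 (SD, n = 4) of the pool in normal rats and 14.6% ± 1.503 in DN rats, and their ranges, 17.3% to 18.9% and 12.6% to 16.2%, did not overlap. The complex IV members took 61.7% to 62.9% in normal and 62.7% to 68.6% in DN rats, which overlapped.

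Counted over pairs of members, the ratio of 11 of the 45 pairs (24.4%) did not overlap between DN and normal rats, beside 17.3% of the pairs of nuclear encoded subunits of the same complexes. In 5 of these 11 pairs 1 of the partners was Mt-co1. The ratio of Mt-co1 to Mt-nd2 counts was 7.36, 8.26, 7.43 and 7.49 in the normal rats and 17.4, 9.79, 15.5 and 9.91 in the DN rats. Every DN rat was above every normal rat, and DN rats 1 and 3 were well above rats 2 and 4. The ratio of Mt-co1 to Mt-nd5 was 18.3 to 22.2 in normal and 27.6 to 33.7 in DN rats. Both genes of each pair lie in the same library, so library size and normalization cancel in these ratios.

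**Figure D4:**
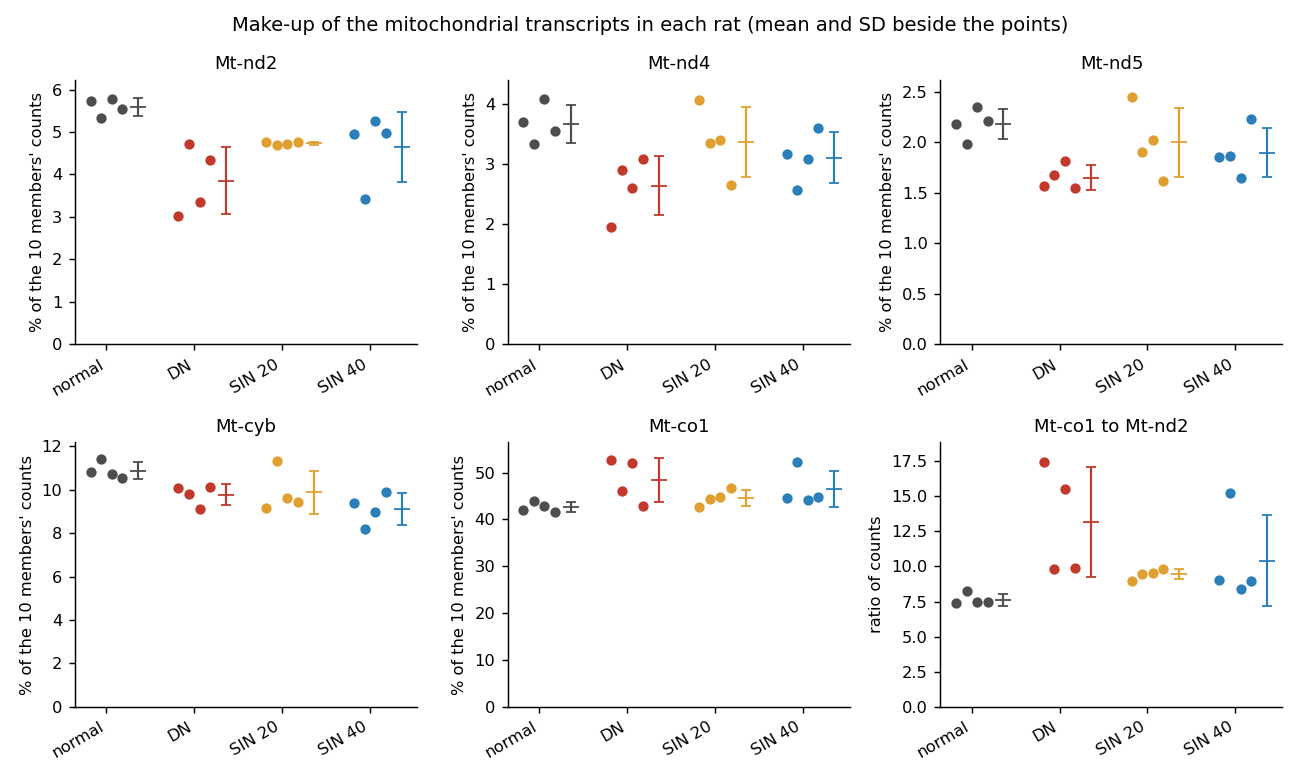
Percent of the 10 members' summed counts taken by Mt-nd2, Mt-nd4, Mt-nd5, Mt-cyb and Mt-co1, and the ratio of Mt-co1 to Mt-nd2 counts, in each rat, with the group mean and SD beside the points. For Mt-nd2 all DN rats (3.02% to 4.71%) lie below all normal rats (5.32% to 5.78%), and the ratio panel shows 3 rats above 15, which are DN rats 1 and 3 and rat 2 of SIN (40 mg/kg).

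Of the rats with the highest ratios of Mt-co1 to Mt-nd2, DN rat 3 also had summed fibroblast and smooth muscle markers of 486.5 CPM, where the other DN rats had 188 to 234 and rat 2 of SIN (40 mg/kg) had 188. Without DN rat 3, 5 members' shares of the pool did not overlap between DN and normal rats, a count that leaving out a rat cannot lower. The part of RNA quality or of library preparation in these values was not tested.

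The comparisons of the SIN groups with the DN group ask whether sinomenine changed these transcripts in diabetic rats. With 20 mg/kg, edgeR's quasi-likelihood test called 0 of the 10 members and 0 of 15724 genes (0%) against DN, and DESeq2 and edgeR's exact test also called 0 members. At an unadjusted p under 0.05 the counts were 0 members and 2427 genes (15.4%). The median log2 fold change of the members was -0.07. The lowest was that of Mt-co1 at -0.28 (95% interval -0.63 to 0.08), where the shares of all counts were 5.51%, 5.01%, 4.88% and 5.79% at 20 mg/kg. The highest was that of Mt-nd4 at 0.18 (-0.28 to 0.65). No member's share of all counts was free of overlap between these groups, where 8.99% of genes were, and none was as a share of the pool, where 6.65% were.

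With 40 mg/kg, the same test called 0 of the 10 members and 0 of 15530 genes (0%) against DN, as did DESeq2 and edgeR's exact test for the members. At an unadjusted p under 0.05 there were 2 members, both lower, and 2657 genes (17.1%, with 7.21% lower). These members were Mt-co1, with a log2 fold change of -0.34 (95% interval -0.67 to -0.02, adjusted p 0.276 by edgeR's test), and Mt-cyb, with -0.38 (-0.75 to -0.01, adjusted p 0.286). Mt-co1 made up 4.90%, 5.07%, 5.02% and 5.12% of all counts at 40 mg/kg, the narrowest range of the 4 groups, and the second DN rat at 5.09% lay among them. For Mt-cyb the shares at 40 mg/kg were 1.03%, 0.796%, 1.02% and 1.13%, and those of DN were 1.33%, 1.08%, 1.14% and 1.44%, so that rat 2 of DN and rat 4 of the treated group overlapped. The members' median was -0.21 on the log2 scale with 9 of 10 values below 0, beside a median of 0.0067 over all genes. No member's share of all counts was free of overlap, where 10.6% of genes were, and none was as a share of the pool, where 14.7% of genes were.

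**Figure D5:**
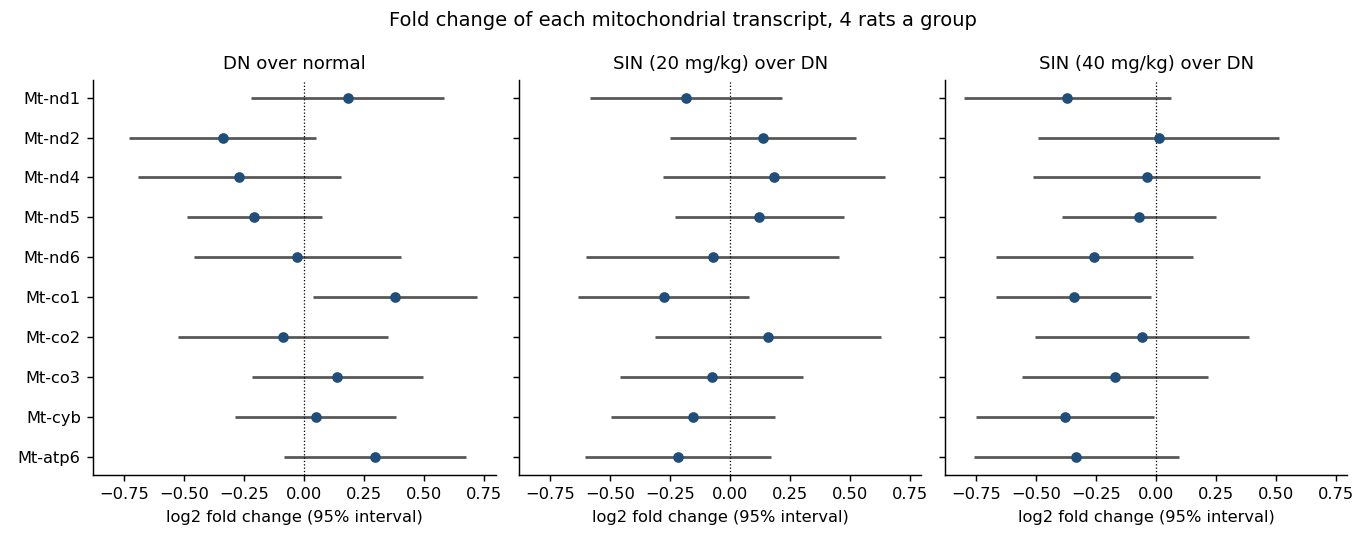
Log2 fold change of each member with its 95% interval from edgeR's quasi-likelihood fit, for DN over normal, SIN (20 mg/kg) over DN and SIN (40 mg/kg) over DN, with a dotted line at 0. The interval lies off 0 for Mt-co1 (0.38) in DN over normal and for Mt-co1 (-0.34) and Mt-cyb (-0.38) in SIN (40 mg/kg) over DN, before adjustment, and all comparisons with DN share the same 4 DN rats.

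Between the doses, edgeR's quasi-likelihood test called 0 of the 10 members and 1 of 15657 genes (0.00639%). At an unadjusted p under 0.05 there were 0 members and 779 genes (4.98%), and DESeq2 and edgeR's exact test called 0 members too. All 10 log2 fold changes of 40 mg/kg over 20 mg/kg were negative, with a median of -0.20, from -0.08 for Mt-co1 (95% interval -0.31 to 0.15) to -0.24 for Mt-nd4 (-0.63 to 0.16). The members come from the same libraries, and rat 2 on 40 mg/kg had the lowest share of all counts in its group for 8 of the 10 members. With 1 rat left out, Mt-nd2 ran from -0.21 to 0.03 and Mt-nd6 from -0.29 to 0.02 on the log2 scale. Without rat 2 on 40 mg/kg the summed share was lower by 0.608 percentage points at the higher dose than at the lower. In shares of all counts, 0 members and 3.17% of genes were free of overlap, and in shares of the pool 0 members and 3.93% of genes were.

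Against normal rats, 0 of the 10 members and 1009 of 15877 genes (6.36%) were called in the group on 20 mg/kg by edgeR's quasi-likelihood test, and DESeq2 and edgeR's exact test called 0 members as well. At an unadjusted p under 0.05 the counts were 0 members and 3302 genes (20.8%), and no member's share of all counts was free of overlap, where 14.5% of genes were. The lowest value was that of Mt-nd2 at -0.20 on the log2 scale (95% interval -0.43 to 0.02). As a share of the pool, Mt-nd2 took 4.76%, 4.70%, 4.71% and 4.77% at 20 mg/kg, below all normal rats and very even among its rats. It was the 1 member of the 10 free of overlap in that measure, where 11.6% of genes were and 7.36% were so downwards.

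For the group on 40 mg/kg against normal rats, edgeR's quasi-likelihood test called 0 of the 10 members and 940 of 15735 genes (5.97%), and its exact test called 0 members. At an unadjusted p under 0.05 there were 3 members, all lower, and 3604 genes (22.9%, with 11.5% lower). They were Mt-nd6 (log2 fold change -0.30, adjusted p 0.118), Mt-cyb (-0.34, adjusted p 0.173) and Mt-nd5 (-0.29, adjusted p 0.213). Mt-nd6 passed with DESeq2, with a log2 fold change of -0.29 and an adjusted p of 0.0453. For DESeq2 the share of all genes called was not computed. As shares of all counts, Mt-nd2 and Mt-cyb were lower in every rat on 40 mg/kg than in every normal rat, where 14.7% of genes were free of overlap and 6.86% were so downwards. The normal rats had between 1.15% and 1.31% of all counts in Mt-cyb, and the treated rats between 0.796% and 1.13%. Within the pool Mt-nd2 and Mt-cyb were lower and Mt-co1 was higher without overlap, 3 of 10 members beside 13.5% of genes (4.47% lower and 9.07% higher), with Mt-co1 at 44.5%, 52.3%, 44.2% and 44.8% of the members' counts after 40 mg/kg and at 41.6% to 44.0% in normal rats. All comparisons with normal share the same 4 normal rats.

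The nuclear encoded subunits of complexes I to V, which are built into the same enzymes, gave other counts of calls than the members. Of 78 listed genes 74 were tested, and between DN and normal rats 35 rose and 0 fell in the edgeR fit, where 8.74% of all genes rose. Their median log2 fold change was 0.31. By complex, 18 of 34 rose in complex I, 1 of 4 in complex II, which has no mitochondrially encoded subunit, 4 of 9 in complex III, 4 of 10 in complex IV and 8 of 17 in complex V. The 3 with the smallest p were Atp5mc1 (log2 fold change 0.67, adjusted p 0.00956) and Atp5mc2 (0.58, adjusted p 0.0110), which encode the same c subunit of the ATP synthase rotor, and Ndufa13 of complex I (0.50, adjusted p 0.0128). With 1 rat left out, the count ran from 4 without normal rat 4 to 39 without DN rat 3. The share of all genes called in those fits was not computed, so a loss of calls over all genes cannot be told apart. The difference between the nuclear and the mitochondrial subunits was not itself tested.

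Summed, the nuclear subunits made up 2.27%, 2.24%, 2.17% and 2.22% of all counts in normal rats and 2.77%, 2.77%, 2.39% and 2.68% in DN rats. At 20 mg/kg they made up 2.33% to 2.66%, and at 40 mg/kg 2.49% to 2.63%. Every rat of every diabetic group was above every normal rat in this sum. The counts of the members per count of the nuclear subunits were 5.15, 5.10, 5.56 and 4.89 in normal rats and 4.75, 3.99, 5.22 and 5.30 in DN rats, which overlapped. At 20 mg/kg the ratios were 5.55, 4.25, 4.26 and 4.86, and at 40 mg/kg they were 4.23, 3.88, 4.31 and 4.59. The rats on 40 mg/kg were below all normal rats in this ratio and overlapped with both other diabetic groups.

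In the other comparisons the nuclear subunits gave few calls by the same edgeR test. Against DN, 0 of 74 passed at either dose. At an unadjusted p under 0.05 there were 4 at 20 mg/kg (2 higher and 2 lower), beside 15.4% of all genes. At 40 mg/kg there were 10, all lower, beside 17.1% of all genes, with 7.21% lower. DESeq2 and edgeR's exact test also called 0 at either dose. Against normal, 5 rose at 20 mg/kg, where 2.77% of all genes rose, led by Uqcr10 of complex III (log2 fold change 0.57, adjusted p 0.0125), and 1 to 10 were called when 1 rat was left out. At 40 mg/kg against normal 0 passed, with 26 higher and 1 lower at an unadjusted p under 0.05, beside 11.4% of all genes that were higher. DESeq2 called 10 and edgeR's exact test 3, but the share of all genes that these tests call was not computed. Between the doses 0 of 74 passed by edgeR, with 2 at an unadjusted p under 0.05, beside 4.98% of all genes, and DESeq2 and the exact test called 0.

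Of the nuclear genes that maintain mitochondrial DNA or transcribe, process and degrade its RNA, 41 of 43 listed were tested. Between DN and normal rats 7 rose and 2 fell in the same edgeR fit, where 8.74% of all genes rose and 10.8% fell. Hsd17b10, a subunit of the RNase P that cuts the 5′ ends of mitochondrial transfer RNAs, rose from 279 ± 17.0 to 408 ± 18.4 CPM (SD, n = 4 each, log2 fold change 0.61, adjusted p 0.00747 by edgeR). Rexo2, an oligoribonuclease that clears short RNA, had a log2 fold change of 0.54 (adjusted p 0.0119), and Polrmt, the RNA polymerase that transcribes the members, had 0.49 (adjusted p 0.0146). Tfam, which packages mitochondrial DNA and starts its transcription, had -0.10 (adjusted p 0.507). Lrpprc, which stabilizes mitochondrial messenger RNAs that carry a poly(A) tail, had 0.23 (adjusted p 0.107). Ppargc1a, a coactivator of mitochondrial biogenesis, had -0.33 (adjusted p 0.135). The number called was between 2 and 14 when 1 rat was left out, with 2 without normal rat 4 and 14 without normal rat 2. For those fits too the share of all genes called was not computed.

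Against DN, 0 of these 41 genes passed at either dose in the edgeR fits, with 6 at an unadjusted p under 0.05 at 20 mg/kg, beside 15.4% of all genes, and 8 at 40 mg/kg, beside 17.1%, while DESeq2 called 1 at 20 mg/kg and 0 at 40 mg/kg and the exact test 0 at both. Polrmt had a log2 fold change of -0.29 at 20 mg/kg and -0.21 at 40 mg/kg against DN, and Rexo2 had -0.30 at 40 mg/kg (adjusted p 0.206). Ppargc1a had 0.25 and 0.31 at the same doses. Against normal 0 of the 41 passed at either dose by edgeR's quasi-likelihood test, with 4 at an unadjusted p under 0.05 at 20 mg/kg, beside 20.8% of all genes, and 3 at 40 mg/kg, beside 22.9%. DESeq2 and the exact test each called 1 at 20 mg/kg and 0 at 40 mg/kg. In the edgeR fits Hsd17b10 had 0.41 (adjusted p 0.0637) at 20 mg/kg and 0.32 (adjusted p 0.119) at 40 mg/kg.

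Within groups, members of a rat tended to deviate from their group means in the same direction. The Pearson correlation of these deviations was above 0 for all 45 pairs, with a median of 0.610, and ran from 0.0544 for Mt-nd4 and Mt-co1 to 0.905 for Mt-nd1 and Mt-cyb. Over the 16 rats, group differences included, the Spearman correlation of log2 CPM between 2 members had a median of 0.447 over the 45 pairs and ran from -0.165 for Mt-nd5 and Mt-atp6 to 0.891 for Mt-nd4 and Mt-nd5, with 6 pairs below 0. The pairs of Mt-co1 with Mt-nd4, Mt-nd5 and Mt-co2 were among those below 0, where their values within groups were 0.0544, 0.283 and 0.170. These values are a description, since the members of a rat share its library and its depth. Among 14431 other genes, the 5 whose level over the 16 rats was most like the summed log2 level of the members included Mmp9 and Ryr1. Mmp9, a secreted gelatinase, had a Spearman correlation of 0.815 and a Pearson correlation of 0.641, or 0.589 within groups. Ryr1, a calcium release channel, had 0.806 and 0.425, or 0.421 within groups. The other 3 were rows with no gene name. These are the highest of many correlations over 16 rats, and whether they exceed what such picking gives was not tested.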

How the data were processed

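Kidney RNA of 16 rats was selected by oligo(dT), made into libraries with an Illumina TruSeq RNA kit and sequenced in pairs. The authors trimmed the reads and aligned them to the Rnor_6.0 rat genome with TopHat. The submitters' processing notes name TopHat, Bowtie, RSEM and edgeR without a role. The deposited table holds estimated counts per gene, of which 86.2% were whole numbers. They were rounded before any test. It also holds 4 columns of libraries and 1 mean that match no sample here, and the authors' group means, and none of these were used.

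Each pair of groups was compared in its own fit with edgeR 4.0.16 (R 4.3.3) in the quasi-likelihood test, after filterByExpr and TMM normalization, with p-values adjusted over all genes tested and called under 0.05. TMM factors lay between 0.911 and 1.06. All 10 members passed the filter on low counts in every comparison. DESeq2 1.42.0, other normalizations and filters, 1 fit of all 16 rats, a block on the replicate number and leaving out each rat were alternatives. The share of all genes called was computed for the main fits only, so calls under the alternatives have no such share beside them. The scripts were tested on simulated counts. Shares were computed on the unrounded counts, and groups without overlap are those where every rat of one was above every rat of the other. Figures were drawn with matplotlib 3.10.9.

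The members and the gene lists were chosen with earlier results of these data known. Named were all members, the other mitochondrial messenger RNAs, Tfam, Polrmt, Ppargc1a and Lrpprc, and up to 3 genes per list and comparison with the smallest unadjusted p under 0.05, not all of which are printed, and the 5 genes most like the members. The labels call the rats separate samples and say nothing of pooling. The p-values measure the spread between these rats.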

Additional observations from a re-analysis of the deposited data

Results flagged for a closer look

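In 92 sets of 4 rats, each 1 measure in 1 group, the highest or lowest rat was set against the others of its group by Dixon's criterion, which chance alone passes in about 1 of 20 sets. It was passed in 7 sets.

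Within SIN (40 mg/kg), the second rat lay far from the others in 3 related measures. Mt-co1 took 52.3% of its members' counts, where the others had 44.2% to 44.8%, Mt-nd2 took 3.43%, where the others had 4.94% to 5.25%, and the ratio of Mt-co1 to Mt-nd2 was 15.2, where the others had 8.43 to 8.999. In normal rats the same ratio was 8.26 in the second rat and 7.36 to 7.49 in the others. Mt-atp6 had 1.55% of all counts in the fourth DN rat and 1.07% to 1.14% in the others. At 20 mg/kg Mt-nd5 had 0.317% of all counts in the first rat and 0.2002% to 0.2202% in the others, and Mt-co3 took 12.2% of the members' counts in the second rat and 14.01% to 14.28% in the others. No cause of these values was tested.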

How the results depend on the processing

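Of 600 member log2 fold changes recomputed with all rats, 587 kept their direction and their side of the threshold, 4 passed it and 9 turned, the largest of these being 0.07 in size. With library totals alone these were Mt-cyb in DN over normal (-0.00884), Mt-nd6 in SIN (20 mg/kg) over DN (0.00252), Mt-nd4 (0.0220) and Mt-co2 (0.00639) in SIN (40 mg/kg) over DN, and Mt-nd1 in SIN (20 mg/kg) over normal (0.00492). Mt-nd2 in SIN (40 mg/kg) over DN became -0.00432 with DESeq2 and with its size factors in edgeR, -0.00713 with factors from nuclear genes and -0.00547 with all 16 rats in 1 fit. The number of members called became 1 in DN over normal with DESeq2, the exact test and all 16 rats in 1 fit, and 1 in SIN (40 mg/kg) over normal with DESeq2. Without Mt-co1 the summed share differed by -0.0333 points between DN and normal rats and by -0.717 between SIN (40 mg/kg) and DN, and 1 member's share of the pool was free of overlap in SIN (20 mg/kg) over DN. That setting, the addition of unnamed rows, and the pool of all 13 messenger RNAs were chosen after seeing the data.

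For the nuclear subunits in SIN (20 mg/kg) over normal the calls were 12 with DESeq2, 9 with library totals alone, 3 with no filter and 9 with all 16 rats. In SIN (40 mg/kg) over normal they were 10 with DESeq2, 3 with the exact test, 9 with library totals and 1 with all 16 rats. The regulators called in DN over normal were 5 with library totals. DESeq2 called 1 of them in SIN (20 mg/kg) over DN, and DESeq2, the exact test, library totals and all 16 rats each called 1 in SIN (20 mg/kg) over normal. The cause of these differences was not tested, and the share of all genes called under these settings was not computed.

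The replicate numbers did not pair the rats: 24 correlations between the deviations of same-numbered rats ran from -0.24 to 0.24, and 2 passed 0.1. With the replicate block, 0 members were called in DN over normal, 17 nuclear subunits and 3 regulators were called in that comparison, and 3 nuclear subunits in SIN (20 mg/kg) over normal.

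With 1 rat left out, 448 of 480 member log2 fold changes kept their direction and side of the threshold, 31 turned and 1 passed it. In DN over normal, Mt-nd6 ran from -0.145 to 0.143, Mt-co2 from -0.314 to 0.0239, Mt-co3 from -0.0163 to 0.214 and Mt-cyb from -0.0700 to 0.132. In SIN (20 mg/kg) over DN, Mt-nd6 ran from -0.292 to 0.0421, Mt-co3 from -0.150 to 0.0756 and Mt-nd5 from -0.0272 to 0.190. In SIN (40 mg/kg) over DN, Mt-nd2 ran from -0.108 to 0.183, Mt-nd4 from -0.181 to 0.156 and Mt-co2 from -0.187 to 0.162. Between the doses Mt-nd6 ran from -0.295 to 0.0226 and Mt-nd2 from -0.214 to 0.0299. In SIN (20 mg/kg) over normal, Mt-nd1 ran from -0.0843 to 0.0517 and Mt-co2 from -0.0427 to 0.153. In SIN (40 mg/kg) over normal, Mt-co3 ran from -0.115 to 0.0500035, Mt-co1 from -0.0254 to 0.0525 and Mt-atp6 from -0.116 to 0.0615. The members called in DN over normal were 0 to 1. The members free of overlap as a share of the pool were 0 to 2 in both SIN groups over DN, 0 to 1 between the doses, 1 to 3 in SIN (20 mg/kg) over normal and 3 to 5 in SIN (40 mg/kg) over normal. Such counts of members without overlap can only stay or rise when a rat is left out. The nuclear subunits called were 4 to 39 in DN over normal, 1 to 10 in SIN (20 mg/kg) over normal and 0 to 1 in SIN (40 mg/kg) over normal, and the regulators 2 to 14 in DN over normal and 0 to 1 in SIN (20 mg/kg) over normal. The summed share in DN exceeded normal by 0.719 to 1.77 points.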
